A study of Mus musculus with 10 samples.

Results

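Genes of amino acid supply were followed in dermal endothelial cells of mice that express *Pik3caH1047R* and of control mice. They are *Atf4*, *Asns*, *Psat1*, *Phgdh*, *Shmt2*, *Mthfd2*, *Slc7a5*, *Slc3a2*, *Slc1a5* and *Slc7a11*. The 10 genes were listed by name, with no measured value in the rule, but with earlier results of these data known. All 10 were found among the 46517 Ensembl genes of the count tables. All 10 also passed the filter on low counts in each of the 8 comparisons below.

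Endothelial cells from ear skin, stained for Podoplanin and CD31, had been placed singly in 9 plates of 384 wells and sequenced with Smart-Seq2, which reads along whole transcripts. The 5 mutant mice had the strain label Pik3caH1047R;Cdh5-CreERT2, were Cre+ and received 4-hydroxytamoxifen (4-OHT) on the dorsal side of the ears at 3 wk of age. Cdh5 is an endothelial gene, so its promoter drives the inducible Cre in lymphatic as well as blood vessels. Of the 2 control mice, control 1 was C57BL/6J and received nothing, and control 2 was Cre-, of the mutant strain, and received 4-OHT as the mutants did. All 7 mice were 5 wk old, and the study's other control mouse was not analysed here. Mutants 3 and 5 have a pair of plates each and the other mice have 1 plate each. By their plate numbers, mutants 1–4 belong to 1 series, and mutant 5 and both controls to another.

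ATF4 is a transcription factor whose mRNA is translated when the initiation factor eIF2 is phosphorylated, as in amino acid shortage, and also downstream of mTORC1, which PI3K signaling activates. Its known targets make serine, glycine and asparagine, produce in mitochondria the one-carbon units that serve purine and thymidylate synthesis, and import amino acids across the plasma membrane. Since ATF4 is regulated largely at translation, the level of its own mRNA need not follow its activity. In endothelial cells, serine synthesis and mitochondrial one-carbon enzymes supply nucleotides and heme and are required for proliferation.

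ATF4 binds with C/EBP proteins to a composite element whose core is TGATGNAA. The RefSeq table of mouse promoters (assembly GRCm38.p6) holds 9 promoters for 8 of the 10 genes. *Slc7a5* and *Slc1a5* are named only. Of the 250 bases before the transcription start, those of *Asns* and *Slc7a11* hold the core on either strand. The core occurs in 3.97% of 32851 promoters. The shares of promoters here and below were counted over 300 bases each, which hold these 250 and run past the start. The 4 sequences below are shown because *Asns* and *Slc7a11* carry the core, and because *Mthfd2* and *Psat1* are the genes with the largest differences in the LECs of mutant mice. Letters in capitals match 1 of the 4 motifs searched. In *Asns*, the core lies at bases −23 to −16 from the start, and the other capitals, at −172 to −164, match the antioxidant response element TGACNNNGC on the opposite strand. In *Slc7a11*, the core is at −66 to −59 on the gene's strand and at −47 to −40 on the opposite one.
Asns, chr6:7693210-7693459, minus strand: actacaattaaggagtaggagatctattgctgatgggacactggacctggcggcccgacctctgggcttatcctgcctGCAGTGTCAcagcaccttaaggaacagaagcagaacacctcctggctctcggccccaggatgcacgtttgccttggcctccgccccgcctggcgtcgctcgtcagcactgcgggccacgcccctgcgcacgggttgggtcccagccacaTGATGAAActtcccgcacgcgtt
Slc7a11, chr3:50443614-50443863, minus strand: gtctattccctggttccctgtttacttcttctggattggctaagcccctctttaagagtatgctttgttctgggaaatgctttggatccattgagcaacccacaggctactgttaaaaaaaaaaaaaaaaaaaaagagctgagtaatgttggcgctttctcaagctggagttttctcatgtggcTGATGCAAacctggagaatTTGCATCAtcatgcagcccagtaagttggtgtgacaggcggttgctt
Mthfd2, chr6:83317605-83317854, minus strand: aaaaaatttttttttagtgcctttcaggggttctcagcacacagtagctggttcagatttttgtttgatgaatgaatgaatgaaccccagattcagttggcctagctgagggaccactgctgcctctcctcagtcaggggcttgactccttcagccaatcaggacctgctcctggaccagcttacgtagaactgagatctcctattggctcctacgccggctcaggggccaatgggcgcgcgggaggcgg
Psat1, chr19:15925060-15925309, minus strand: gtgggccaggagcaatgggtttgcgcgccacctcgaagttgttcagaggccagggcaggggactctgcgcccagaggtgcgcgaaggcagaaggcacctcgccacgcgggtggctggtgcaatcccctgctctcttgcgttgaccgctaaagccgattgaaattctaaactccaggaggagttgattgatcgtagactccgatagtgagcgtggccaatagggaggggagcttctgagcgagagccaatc
*Mthfd2* and *Psat1* have none of the motifs in this window, which says only that these letters are not there. The antioxidant element also occurs in *Phgdh*, at −53 to −45, and in 12.4% of all promoters. The cAMP response element TGACGTCA (1.79% of promoters) and the E box CACGTG (7.15%) occur in 0 of the 9 promoters of these genes. The motif letters were searched on both strands and the matches do not overlap one another.

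A well was kept from 50000 reads and 200 genes upward, unless over 10% of its reads were mitochondrial, which left 3248 of 3456 wells. A cell was taken as a lymphatic endothelial cell (LEC) when its counts scaled to CPM (reads per 1e6 reads of the cell) of *Prox1*, *Flt4* and *Mmrn1* summed to at least 300 and exceeded the sum of *Flt1*, *Emcn* and *Podxl*, and as a blood endothelial cell (BEC) by the reverse rule. This gave 1641 LECs (1283 mutant, 358 control), 1490 BECs (1174 mutant, 316 control) and 117 cells of neither kind. Each mouse contributed 175–367 LECs and 157–330 BECs, and no kept cell had the same counts as another. A list of 6 LEC markers summed to 6376–9928 CPM in the LECs of each mouse and 122–409 in its BECs, while 6 BEC markers summed to 1611–2410 and 5812–8029 CPM. Each list includes the genes of the rule itself, so part of this difference was set by the rule.

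Several measures differed between the genotypes and go with each comparison of mutant and control below. The 6 fibroblast markers summed to 455 and 243 CPM in control LECs against 26.9–127 in mutant LECs, and to 972 and 735 against 17.6–70.2 in BECs. Mural markers summed to 125 and 93.7 against 33.0–60.1 CPM in LECs and to 699 and 301 against 34.0–214 in BECs. Schwann cell markers summed to 127 and 32.2 against 5.58–22.4 CPM in LECs and to 223 and 73.3 against 27.5–44.2 in BECs. Keratinocyte markers overlapped in both cell types, at 189.7 and 388 against 60.3–304 CPM in LECs, as did immune markers, at 40.3 and 9.86 against 25.7–59.2. None of the fibroblast, mural or keratinocyte markers was at 0 in these sums. A list of 10 immediate early and heat shock genes induced by dissociation summed to 3834 and 2383 against 694–1721 CPM in LECs and to 4586 and 4524 against 1360–2669 in BECs. The 7 cycling genes named below summed to 56.4 and 79.5 against 388–681 CPM in LECs and to 20.2 and 27.2 against 92.7–451 in BECs. Gene reads per read of the added spike-in RNA were 158 and 138 in control LECs and 305–474 in mutant LECs, and 129 and 94.5 against 187–414 in BECs. Their part in the results was not tested, except by alternative fits. Some left out the 135 LECs and BECs in which the sum of 1 of these 5 marker lists exceeded the sum that had made them LECs or BECs. Others kept non-cycling cells only.

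Per kilobase of exon, which allows genes to be compared, *Slc3a2* and *Atf4* had the highest levels of the 10 genes in both cell types and both genotypes. In control LECs, *Slc3a2* had 132 ± 71.5 CPM per kb (SD, n = 2), *Atf4* 109 ± 21.6 and *Shmt2* 27.0 ± 2.91, and the order went on with *Slc1a5* (10.5 ± 1.19), *Psat1* (7.43 ± 4.60), *Phgdh* (4.87 ± 1.58) and *Asns* (4.73 ± 0.403). *Mthfd2* (0.565 ± 0.216), *Slc7a5* (0.563 ± 0.469) and *Slc7a11* (0.186 ± 0.127) stood at the low end. The pairs *Slc3a2* and *Atf4*, *Slc1a5* and *Psat1*, *Psat1* and *Phgdh*, *Phgdh* and *Asns*, *Mthfd2* and *Slc7a5*, and *Slc7a5* and *Slc7a11* differed by less than their spread. In mutant LECs, *Psat1* followed *Shmt2* with 22.3 ± 4.70 CPM per kb (SD, n = 5), but it and *Slc1a5* (19.0 ± 5.94) differed by less than their spread. *Mthfd2* stood after *Asns* with 4.82 ± 1.42, and it and *Phgdh* (3.64 ± 1.04) differed by less than their spread too. In control BECs, *Slc1a5* followed *Slc3a2* and *Atf4*, with 35.2 ± 4.46 CPM per kb, and in mutant BECs *Shmt2* (36.3 ± 6.13) and *Slc1a5* (34.3 ± 6.11) differed by less than their spread. *Slc7a11* was last in each of the 4 groups, at 0.109–0.201 CPM per kb.

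**Figure D1:**
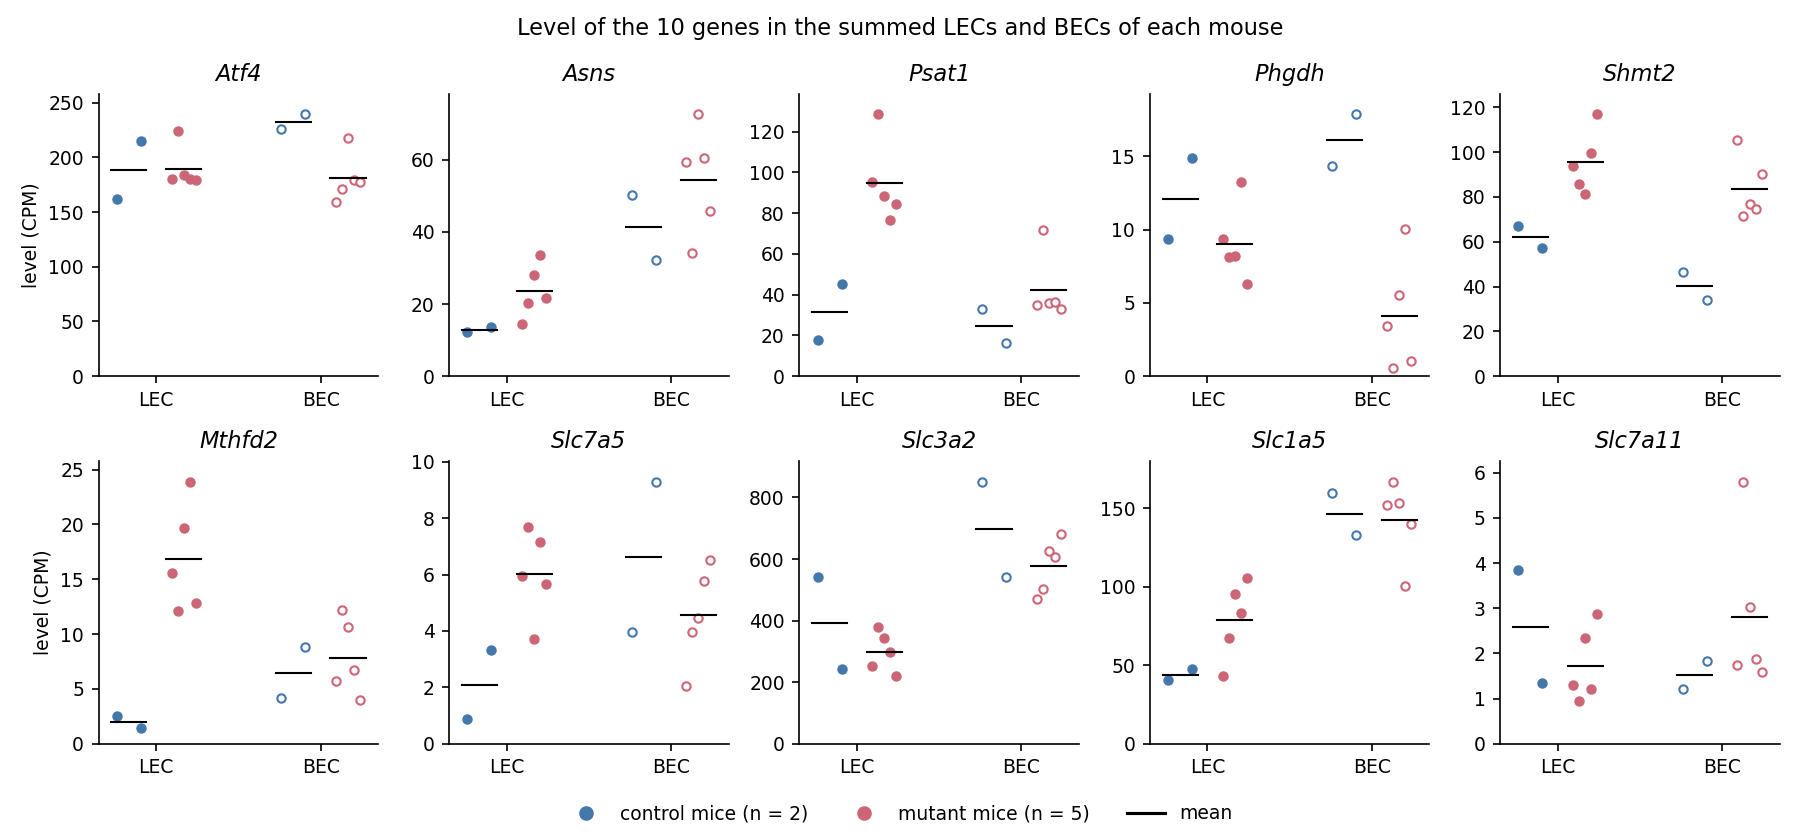
CPM of each of the 10 genes on a linear axis from 0, in the summed LECs and BECs of each mouse, with 1 point per mouse and a line at the mean of each group. The 5 mutant points lie above both control points for *Psat1*, *Shmt2*, *Mthfd2*, *Slc7a5* and *Asns* in LECs.

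The first question was how these genes compare between mutant and control LECs. Of the 10, 1 gene, *Mthfd2*, rose. It was the only one called at an adjusted p under 0.05, with edgeR's quasi-likelihood test on the summed counts per mouse and Benjamini-Hochberg adjustment over all 19758 genes tested. Of all these genes, 2.76% were called, in either direction. Without adjustment, 6 of the 10 had p under 0.05, and so had 3963 of the 19758 genes. DESeq2 called 4 (*Mthfd2*, *Psat1*, *Shmt2* and *Slc7a5*), but it called 2472 genes in all against 546 with edgeR. For 5 of the 10, *Asns*, *Psat1*, *Shmt2*, *Mthfd2* and *Slc7a5*, the lowest mutant mouse was above the higher control mouse, which held for 12.5% of all genes. For 0 of the 10 were all mutants below both controls. The median log2 difference of the 10 genes was 0.78 and that of all genes tested −0.007.

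**Figure D2:**
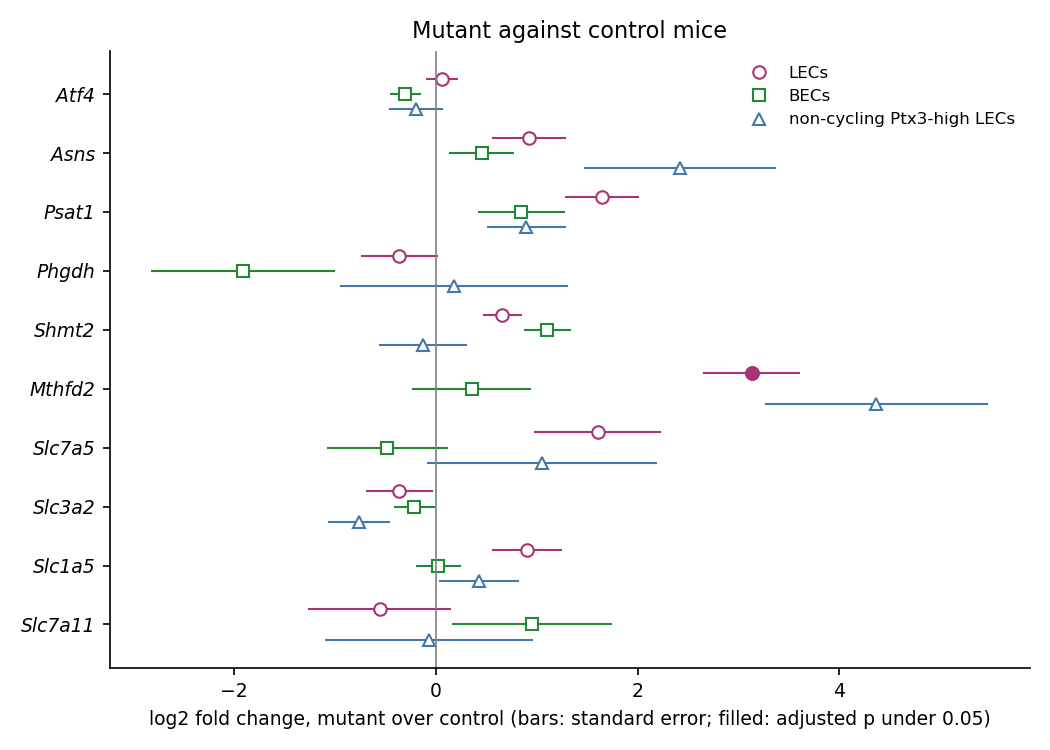
Log2 fold change of mutant over control mice for each of the 10 genes, in LECs, in BECs and in non-cycling LECs with at least 100 CPM of *Ptx3*, with bars of 1 SE from the edgeR fit. Filled points have an adjusted p under 0.05, and the only one is *Mthfd2* in LECs, at 3.13.

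The transcription factor itself did not separate the genotypes in LECs. Positions of the 10 genes, all protein-coding, are those of the whole gene in GRCm38, and reads were counted over their exons. *Atf4* (ENSMUSG00000042406, chr15:80255184-80257541, plus strand) had 162 and 215 CPM in controls 1 and 2, and 179.7, 224, 184, 179.8 and 179 CPM in mutants 1–5. The groups overlapped, and the log2 difference was 0.06 ± 0.155 (SE, edgeR adjusted p = 0.864). *Asns* (ENSMUSG00000029752, chr6:7675169-7693254, minus strand), which makes asparagine from aspartate with the nitrogen of glutamine, had 12.1 and 13.7 CPM in controls and 14.5, 20.4, 28.1, 33.7 and 21.6 CPM in mutants. All mutants were above both controls, the nearest by less than 1 CPM, with a log2 difference of 0.93 ± 0.367 that did not pass the test (edgeR adjusted p = 0.211).

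Neither enzyme of serine synthesis passed the test in LECs, and the mutant mean was below the control mean for *Phgdh* and above it for *Psat1*. *Phgdh* (ENSMUSG00000053398, chr3:98313170-98339990, minus strand), the first and committed step, had 9.34 and 14.9 CPM in control LECs and 9.36, 8.13, 8.21, 13.2 and 6.31 CPM in mutant LECs. These values overlapped (log2 difference −0.36 ± 0.382, edgeR adjusted p = 0.639), and with non-cycling cells only the difference was −1.24 (edgeR adjusted p = 0.300). *Psat1* (ENSMUSG00000024640, chr19:15904678-15947337, minus strand), the transaminase of the next step, had 17.8 and 45.5 CPM in controls and 95.4, 128, 88.5, 76.9 and 84.5 CPM in mutants. Every mutant was above both controls, and control 1 was the lower of the controls. The log2 difference was 1.65 ± 0.364, just short of the threshold (edgeR adjusted p = 0.0549). Of 18 alternatives, 4 gave a call, with DESeq2, with every cell thinned to 50000 reads (1.63, edgeR adjusted p = 0.0305), without the 135 cells of higher contaminant markers (1.95, 0.0272) and without control 2 (2.42, 0.0289). The other 14 gave none, among them non-cycling cells only (1.38, edgeR adjusted p = 0.115), the plate series as a covariate (1.49, 0.285) and without control 1 (1.18, 0.107).

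Of the 2 mitochondrial enzymes that pass the carbon of serine on to one-carbon units, *Mthfd2* rose in mutant LECs and *Shmt2* did not pass the test. *Shmt2* (ENSMUSG00000025403, chr10:127517123-127522444, minus strand), which splits serine into glycine and a one-carbon unit on folate, had 66.9 and 57.4 CPM in controls and 93.7, 85.9, 81.4, 99.4 and 117 CPM in mutants. The groups did not overlap, with a log2 difference of 0.66 ± 0.191 (edgeR adjusted p = 0.103). *Mthfd2* (ENSMUSG00000005667, chr6:83305691-83325908, minus strand), the dehydrogenase and cyclohydrolase that oxidizes this unit, had 2.50 and 1.44 CPM in controls and 15.6, 12.1, 19.7, 23.9 and 12.8 CPM in mutants. The lowest mutant stood well above the higher control, and the log2 difference was 3.13 ± 0.485 (edgeR adjusted p = 0.0194). The call was lost without mutant 3 (3.06, edgeR adjusted p = 0.0574), without control 1 (3.67, 0.0539) and without control 2 (2.75, 0.0574). With non-cycling cells only, the difference was 2.65 (edgeR adjusted p = 0.0597). With the plate series as a covariate it was 2.74 (edgeR adjusted p = 0.117). Within the series of both controls it was 2.74 too, but that fit sets 1 mutant mouse, mutant 5, against 2 controls with 1 residual degree of freedom, so its adjusted p of 0.683 from edgeR says little.

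Among the transporters, no difference passed the test in LECs. *Slc7a5* (ENSMUSG00000040010, chr8:121881150-121907694, minus strand), the light chain that carries large neutral amino acids such as leucine, had 0.859 and 3.32 CPM in controls and 5.96, 7.68, 3.71, 7.16 and 5.68 CPM in mutants. The mutants lay above the controls, mutant 3 by little (log2 difference 1.60 ± 0.629, edgeR adjusted p = 0.206), but the difference was 0.56 in non-cycling cells and 0.48 with thinned cells. *Slc3a2* (ENSMUSG00000010095, chr19:8706882-8723369, minus strand), the heavy chain that *Slc7a5* and *Slc7a11* need to reach the membrane, had 541 and 242 CPM in controls and 252, 378, 344, 299 and 219 CPM in mutants. Here control 1 was high and the groups overlapped (−0.36 ± 0.329, edgeR adjusted p = 0.580). *Slc1a5* (ENSMUSG00000001918, chr7:16781340-16798274, plus strand), the exchanger of glutamine and small neutral amino acids, had 40.3 and 47.3 CPM in controls and 42.9, 67.3, 95.3, 83.4 and 106 CPM in mutants. Only mutant 1 fell within the range of the controls (log2 difference 0.90 ± 0.343, edgeR adjusted p = 0.194). *Slc7a11* (ENSMUSG00000027737, chr3:49892526-50443614, minus strand), the light chain of the cystine and glutamate exchanger, had 3.85 and 1.34 CPM in controls and 0.935–2.86 CPM in mutants, and the groups overlapped (−0.56 ± 0.710, edgeR adjusted p = 0.707).

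In BECs of the same mice, 0 of the 10 genes passed the edgeR quasi-likelihood test, against 2.12% of the 19315 genes tested. Without adjustment 1 of the 10, *Shmt2*, had p under 0.05, where 3793 of the 19315 genes had, and DESeq2 called the same gene. *Shmt2* had 46.7 and 34.2 CPM in control BECs and 105, 71.3, 76.7, 74.5 and 90.4 CPM in mutant BECs. All mutants were above both controls, by a log2 difference of 1.11 ± 0.233 (edgeR adjusted p = 0.0543). It was the 1 gene of the 10 with all mutants above, which held for 12.2% of all genes. All mutants were below both controls for *Atf4* and *Phgdh*, and for 12.8% of all genes. The median log2 difference of the 10 genes was 0.19 and that of all genes 0.008.

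*Atf4* had 226 and 239 CPM in control BECs and 159, 171, 218, 179 and 178 CPM in mutant BECs, with mutant 3 nearest to the controls (log2 difference −0.30 ± 0.154, edgeR adjusted p = 0.316). *Phgdh* had 14.3 and 17.9 CPM in controls and 3.44, 0.554, 5.55, 10.1 and 1.06 CPM in mutants. The mutants ranged widely, and the log2 difference of −1.91 ± 0.911 did not pass the test (edgeR adjusted p = 0.289). Over 18 alternatives this difference ran from −3.88 to −0.69. Within control mice, the difference of *Phgdh* between LECs and BECs depended on the cells of higher contaminant markers, as given below. *Psat1* had 33.0 and 16.2 CPM in controls and 34.8, 71.8, 35.7, 36.5 and 32.8 CPM in mutants, so that 4 of 5 mutants were within 4 CPM of control 1 (0.84 ± 0.432, edgeR adjusted p = 0.318). *Mthfd2*, with 4.17 and 8.78 CPM in controls and 5.68, 12.2, 10.7, 6.74 and 4.00 CPM in mutants, overlapped between the genotypes (0.35 ± 0.594, edgeR adjusted p = 0.783). The direction of *Mthfd2* in BECs turned with non-cycling cells (−0.23) and with the plate series as a covariate (−0.64).

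The transporters and *Asns* overlapped between genotypes in BECs. *Asns* had 50.4 and 32.3 CPM in controls and 34.1–72.6 CPM in mutants, *Slc7a5* 3.96 and 9.29 against 2.06–6.52, *Slc3a2* 851 and 543 against 470.4–681, *Slc1a5* 159.5 and 133 against 101–167, and *Slc7a11* 1.22 and 1.83 against 1.58–5.80. Their log2 differences lay between −0.48 and 0.96, with edgeR adjusted p of 0.463 or more.

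Whether the mutant effect differed between LECs and BECs was tested as the difference of the 2 effects, with the mouse as a block. None of the 10 genes passed, that is, 0 were called by the edgeR quasi-likelihood test, where 0.191% of 21933 genes were. Without adjustment 2 of the 10 had p under 0.05, *Mthfd2* and *Slc7a5*, where 2528 of the 21933 genes had, and DESeq2 called these 2. The effect in LECs exceeded that in BECs by 2.81 ± 0.770 on the log2 scale for *Mthfd2* (edgeR adjusted p = 0.219) and by 2.26 ± 0.723 for *Slc7a5* (edgeR adjusted p = 0.282). For *Slc7a5* it was 1.26 in non-cycling cells and 0.64 in thinned cells. The median of the 10 differences was 0.60 and that of all genes −0.031.

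LECs and BECs of a mouse share its plates, so the 2 cell types were also compared within mice. In control mice, *Asns* and *Slc1a5* were lower in LECs and passed the test, 2 of the 10 genes, where 10.4% of all genes were called. *Asns* had 12.1 and 13.7 CPM in LECs against 50.4 and 32.3 in BECs of controls 1 and 2 (log2 difference −1.62 ± 0.364, edgeR adjusted p = 0.0287). *Slc1a5* had 40.3 and 47.3 against 159.5 and 133 CPM (−1.71 ± 0.377, edgeR adjusted p = 0.0265). Both genes were lower in the LECs of either control mouse. With only 2 control mice, each call was lost without control 1 (−1.24, edgeR adjusted p = 0.241, for *Asns* and −1.49, 0.204, for *Slc1a5*) and without control 2 (−1.98, 0.0734, and −1.92, 0.110). For *Asns* it was also lost where the own marker sum had to be at least 5 times the other (−1.28, edgeR adjusted p = 0.185). DESeq2 called 6 of the 10, 1 higher and 5 lower in LECs. The median log2 difference was −0.64, and 0.003 for all genes.

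In mutant mice, 4 of the 10 genes passed the test between cell types, where 19.2% of all genes did. *Asns* had 14.5, 20.4, 28.1, 33.7 and 21.6 CPM in LECs of mutants 1–5 against 59.5, 34.1, 72.6, 60.4 and 45.7 in BECs (log2 difference −1.22 ± 0.229, edgeR adjusted p = 0.00728). *Slc3a2* had 252, 378, 344, 299 and 219 CPM against 470.4, 504, 626, 608 and 681 (−0.98 ± 0.164, edgeR adjusted p = 0.00426). Both were lower in the LECs of all 5 mutants, and both calls held under each of 15 alternatives. Those that left out a control mouse removed none of the values of this contrast. *Slc1a5* was lower in LECs as well, with 42.9–106 against 101–167 CPM (−0.90 ± 0.238, edgeR adjusted p = 0.0323), in 5 of 5 mice. Its call was lost without mutant 1 (−0.66, edgeR adjusted p = 0.0578), mutant 2 (−0.81, 0.0924) or mutant 3 (−0.98, 0.0633) and with first plates only (−0.75, 0.105). *Psat1* was the gene that was higher in LECs, with 76.9–128 CPM against 32.8–71.8 in BECs, in 5 of 5 mice (1.20 ± 0.286, edgeR adjusted p = 0.0212). Its call was lost without mutant 1 (1.15, edgeR adjusted p = 0.0663), mutant 3 (1.16, 0.067), mutant 4 (1.23, 0.0558) or mutant 5 (1.16, 0.067), and with non-cycling cells (0.97, 0.0615).

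**Figure D3:**
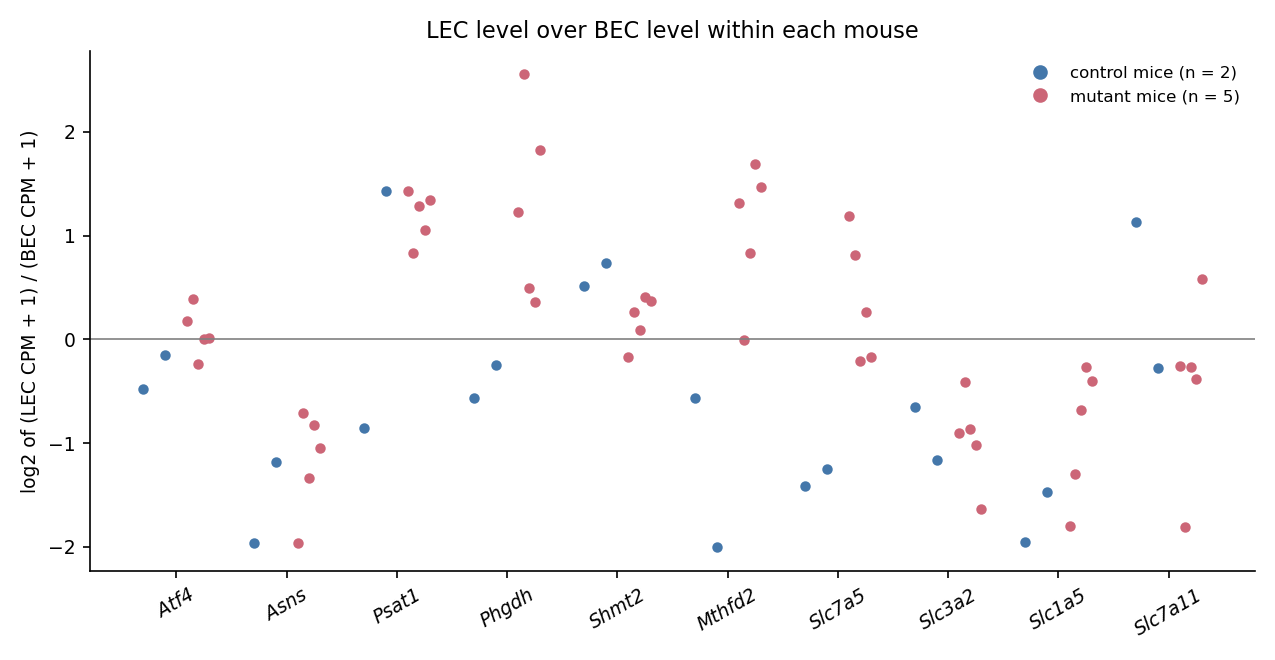
Log2 ratio of the CPM in LECs to that in BECs of the same mouse, with 1 CPM added to each, for the 10 genes, with 1 point per mouse. *Asns*, *Slc3a2* and *Slc1a5* lie below 0 in all 7 mice, and *Phgdh* lies below 0 in both controls and above 0 in all 5 mutants.

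Other genes of the list went in 1 direction within mice without passing the test. *Phgdh* was higher in LECs of 5 of 5 mutants (log2 difference 1.70 ± 0.554, edgeR adjusted p = 0.0711) and lower in LECs of 2 of 2 controls (−0.41), but the control value turned to 1.96 without the cells of higher contaminant markers and to 0.013 with thinned cells. *Mthfd2* was higher in LECs of 4 of 5 mutants (1.17 ± 0.397, edgeR adjusted p = 0.0821) and lower in those of both controls (−1.64, edgeR adjusted p = 0.174). *Slc3a2* was lower in LECs of both controls too (−0.88, edgeR adjusted p = 0.0736). *Shmt2* was higher in LECs of both controls (0.66, edgeR adjusted p = 0.0669) and of 4 of 5 mutants (0.19). The median log2 difference of the 10 genes in mutant mice was 0.12, and that of all genes 0.032.

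Some dermal LECs express *Ptx3*, a secreted pattern recognition molecule, and the study described capillary LECs marked by it. Non-cycling LECs with at least 100 CPM of *Ptx3* numbered 12 and 42 in the controls and 37, 42, 100, 64 and 120 in the mutants. A limit of 50 CPM gave 12, 46, 38, 44, 112, 65 and 131 such cells. A limit of 200 CPM gave 10, 34, 34, 37, 95, 55 and 103, so the numbers moved with the limit. Between genotypes, 0 of the 10 genes passed the edgeR quasi-likelihood test in these cells, against 1.83% of 15534 genes. Without adjustment 4 of the 10 had p under 0.05, where 3045 of the 15534 genes had, and DESeq2 called *Asns* and *Mthfd2*. For 3 of the 10, *Asns*, *Psat1* and *Mthfd2*, all mutants were above both controls, as for 14.2% of all genes.

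*Mthfd2* had 1.46 and 0.191 CPM in the *Ptx3*-high LECs of controls 1 and 2, from 6 and 3 reads, and 18.6, 20.3, 15.7, 16.4 and 8.75 CPM in mutants, from 256–612 reads. The groups were far apart, but the log2 difference of 4.37 ± 1.11 did not pass the test (edgeR adjusted p = 0.0804). It was called without control 1 (6.40, edgeR adjusted p = 0.0479), with cycling cells kept (4.92, 0.0324) and by no other edgeR alternative. *Asns* had 1.22 CPM (5 reads) and 13.9 CPM in controls and 30.9, 24.8, 70.6, 58.5 and 17.6 CPM in mutants, with mutant 5 near control 2 (2.42 ± 0.952, edgeR adjusted p = 0.210). Without control 2 it was called (5.00, edgeR adjusted p = 0.0294). *Psat1* had 73.2 and 45.0 CPM in controls and 114, 154, 127, 74.9 and 89.0 CPM in mutants, with mutant 4 just above control 1 (0.90 ± 0.390, edgeR adjusted p = 0.246). *Slc3a2* had 447 and 207 CPM in controls and 159–235 CPM in mutants, and 2 of the mutants were above control 2 (−0.76 ± 0.308, edgeR adjusted p = 0.219). The other 6 genes had log2 differences from −0.20 to 1.05. The median over the 10 genes was 0.30, and over all genes 0.077.

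Within mutant mice, *Ptx3*-high non-cycling LECs were set against the remaining non-cycling LECs of the same mouse, with the mouse as a block. Of the 10 genes, *Psat1* rose and *Slc3a2* fell, where 3.74% of 17709 genes were called. *Psat1* had 114, 154, 127, 74.9 and 89.0 CPM in *Ptx3*-high LECs of mutants 1–5 and 28.0, 54.7, 22.5, 26.7 and 54.3 CPM in the others. It was higher in *Ptx3*-high cells of each mutant (log2 difference 1.65 ± 0.256, edgeR adjusted p = 0.0174). *Slc3a2* had 186, 211, 235, 195 and 159 CPM in *Ptx3*-high cells against 288, 477, 438, 404 and 267 CPM. It was lower in each mutant (−0.89 ± 0.101, edgeR adjusted p = 0.00788), and this call held under all 14 alternatives. The call of *Psat1* was lost without mutant 1 (1.55, edgeR adjusted p = 0.0598), mutant 2 (1.68, 0.062), mutant 3 (1.43, 0.0522) or mutant 4 (1.69, 0.0576), and where the own marker sum had to be at least 5 times the other (1.63, 0.0812). DESeq2 called 3 of the 10.

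**Figure D4:**
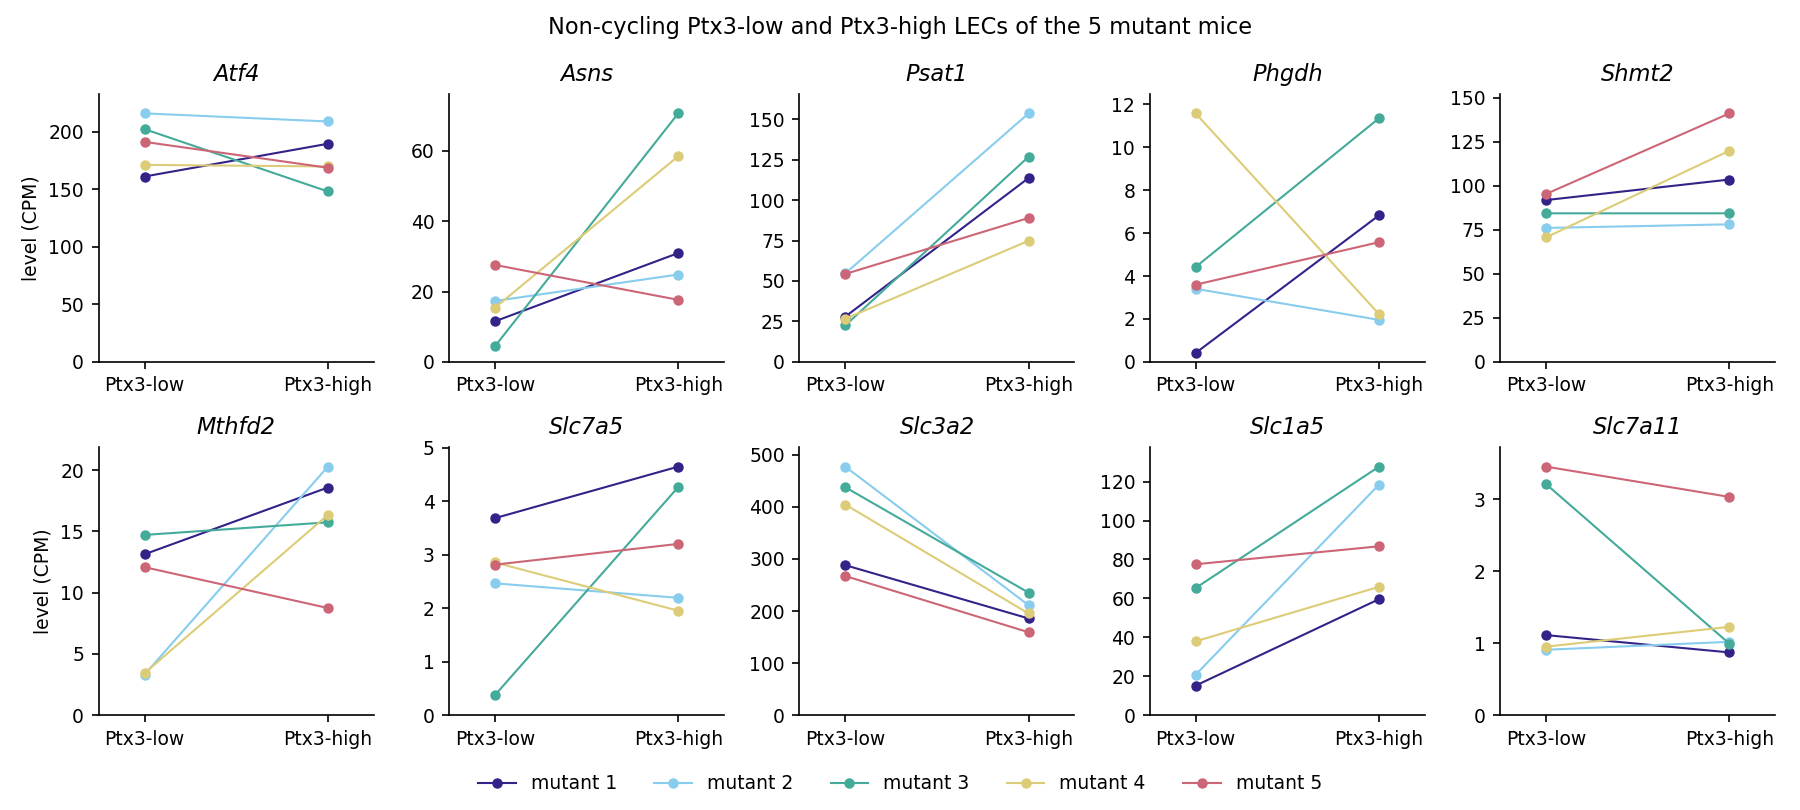
CPM, on a linear axis from 0, of the 10 genes in non-cycling LECs below and at or above 100 CPM of *Ptx3*, with a line joining the 2 values of each of the 5 mutant mice. The lines of *Psat1* and *Slc1a5* go up and those of *Slc3a2* down in all 5 mice.

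*Slc1a5* was higher in *Ptx3*-high cells of 5 of 5 mutants, with 59.6, 118, 128, 66.0 and 86.8 CPM against 15.2, 20.8, 65.3, 38.0 and 77.6, though mutant 5 showed only a small difference (1.28 ± 0.347, edgeR adjusted p = 0.106). *Shmt2* was higher in 5 of 5 as well, by a log2 difference of 0.32 (edgeR adjusted p = 0.349). *Asns* and *Mthfd2* were higher in 4 of 5 mutants (1.41 ± 0.648, edgeR adjusted p = 0.336, and 0.99, 0.462). In *Ptx3*-high cells gene reads per spike-in read were 349–578, against 238–395 in the other LECs, and the sum of the 7 cycling genes was 66.5–103 against 22.6–89.0 CPM, although both sets hold only cells below the cycling limit. The part of these in the result was not tested. The median of the 10 log2 differences was 0.53, and −0.054 for all genes.

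Since one-carbon units and serine serve nucleotide synthesis, the 10 genes were also compared between cycling and non-cycling LECs. A cell counted as cycling when, after thinning to 50000 reads, at least 3 of *Mki67*, *Top2a*, *Ccnb2*, *Cdk1*, *Birc5*, *Ube2c* and *Racgap1* had a read. Cycling LECs numbered 2 and 5 in the controls (1.09% and 2.86% of LECs) and 57, 37, 46, 21 and 78 in the mutants (11.5–31.0%), and the comparison was made within the 5 mutants. With 2 of the 7 genes required the mutants had 97, 57, 102, 42 and 170 such cells and with 4 they had 36, 22, 33, 15 and 51, so many cells lay near this limit. Of the 10 genes, 4 rose, *Psat1*, *Phgdh*, *Slc7a5* and *Slc1a5*, and 0 fell, where 5.63% of 18890 genes were called. The median log2 difference was 0.75, against −0.152 for all genes.

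Both enzymes of serine synthesis on the list rose in cycling cells. *Psat1* had 172, 291, 278, 206 and 138 CPM in cycling LECs of mutants 1–5 and 55.7, 83.6, 59.8, 48.6 and 70.2 CPM in non-cycling LECs. It was higher in each mouse (log2 difference 1.72 ± 0.186, edgeR adjusted p = 0.00383) and was called under all 14 alternatives. *Phgdh* had 22.6, 26.8, 16.9, 40.3 and 13.04 CPM against 2.49, 2.98, 6.90, 7.31 and 4.50 CPM. The cycling value was the higher in each mouse here too (2.30 ± 0.414, edgeR adjusted p = 0.0238). The call of *Phgdh* was lost without mutant 1 (2.12, edgeR adjusted p = 0.0568), mutant 2 (2.13, 0.0734) or mutant 4 (2.27, 0.0841), and also at a limit of 2 (2.05, 0.0881) or 4 cycling genes (2.05, 0.0573), with first plates only (1.95, 0.135) and with cells of purer markers (2.54, 0.137).

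**Figure D5:**
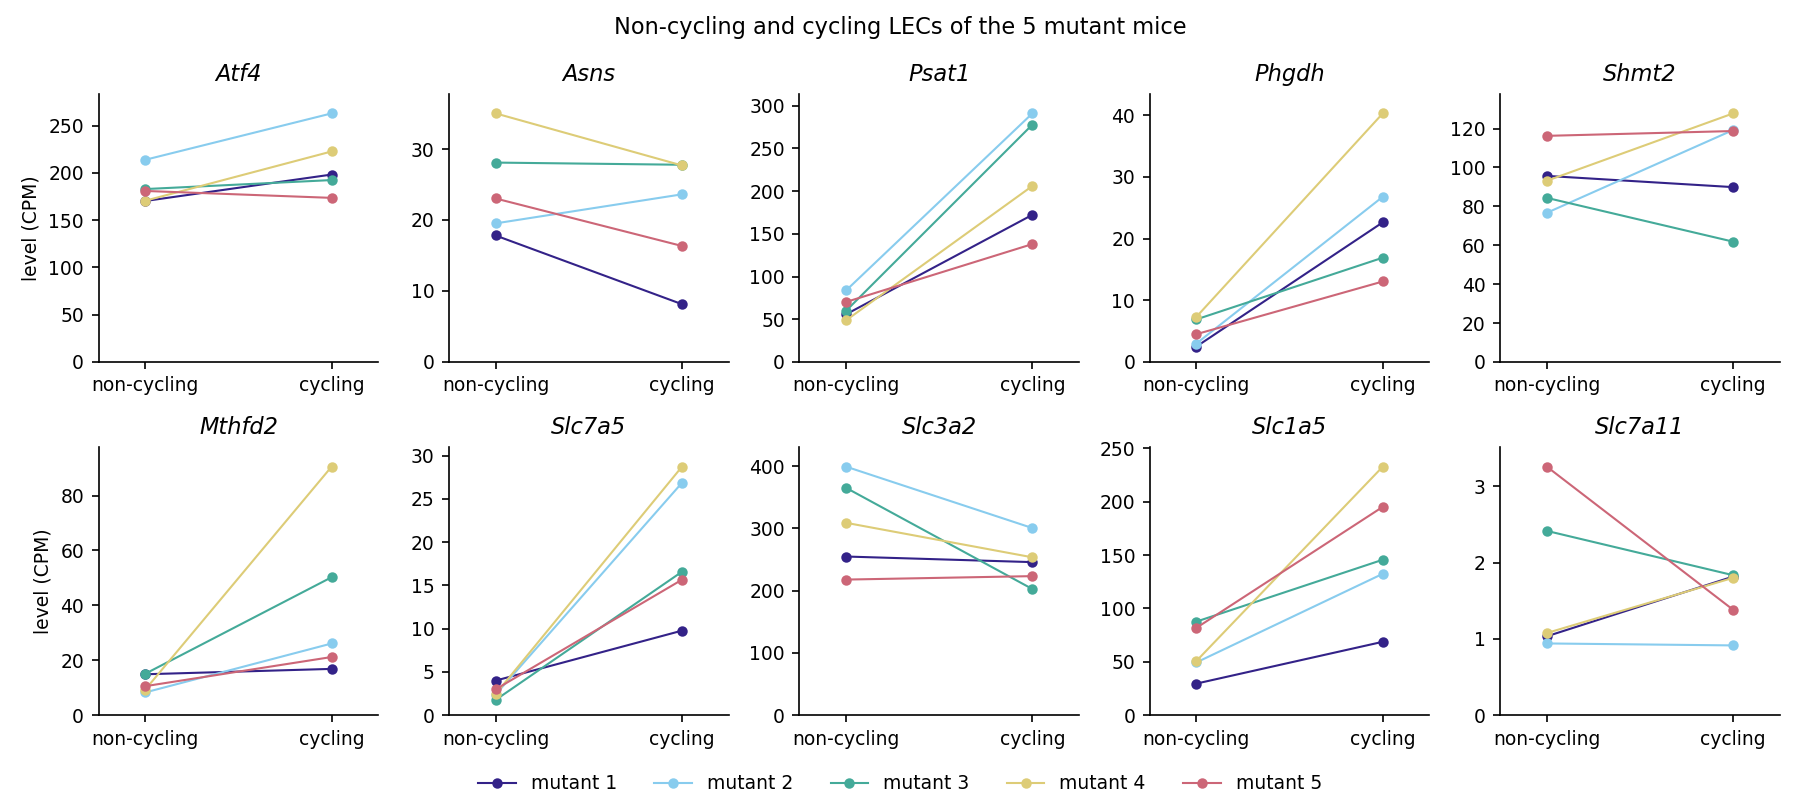
CPM, on a linear axis from 0, of the 10 genes in non-cycling and cycling LECs, with a line joining the 2 values of each of the 5 mutant mice. The lines of *Psat1*, *Phgdh*, *Mthfd2*, *Slc7a5* and *Slc1a5* go up in all 5 mice.

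The transporters *Slc7a5* and *Slc1a5* rose as well. *Slc7a5* had 9.77, 26.9, 16.6, 28.7 and 15.7 CPM in cycling LECs against 4.00, 2.39, 1.76, 2.44 and 2.99 CPM. Each mouse had the higher value in cycling cells (2.79 ± 0.480, edgeR adjusted p = 0.0198). The call was lost without mutant 2 (2.64, edgeR adjusted p = 0.0724), mutant 3 (2.66, 0.0822), mutant 4 (2.59, 0.0711) or mutant 5 (2.90, 0.0584), at a limit of 2 cycling genes (2.03, 0.0861) and with cells of purer markers (2.29, 0.158). *Slc1a5* had 68.7, 132, 146, 233 and 195 CPM against 29.6, 49.4, 87.6, 50.7 and 81.8 CPM. It too was higher in 5 of 5 mice (1.34 ± 0.201, edgeR adjusted p = 0.0128), and its call was lost without mutant 2 (1.36, edgeR adjusted p = 0.0508), with first plates only (1.17, 0.0531) and with cells of purer markers (0.96, 0.0615).

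Neither of the one-carbon enzymes passed the test in cycling cells. *Mthfd2* had 16.9, 26.1, 50.3, 90.5 and 21.2 CPM in cycling LECs against 14.9, 8.28, 15.1, 9.32 and 10.6 CPM. It was higher in all 5 mice, little so in mutant 1 (1.53 ± 0.449, edgeR adjusted p = 0.103). *Shmt2* was higher in 3 of 5 mice (log2 difference 0.09), *Atf4* in 4 of 5 (0.16) and *Slc3a2* and *Asns* in 1 of 5 each (−0.34 and −0.36). Control 2 was the only control with 5 cycling LECs, and its values rest on these 5 cells. *Psat1* had 342 CPM in them and 36.0 CPM in its non-cycling LECs, *Phgdh* 23.8 and 14.6 and *Slc7a5* 12.7 and 3.02, but *Slc1a5* had 34.9 and 47.7, *Shmt2* 30.1 and 58.3 and *Mthfd2* 0 and 1.48 CPM. Gene reads per spike-in read were 337–742 in cycling and 278–435 in non-cycling LECs of the mutants, and the part of this in the results was not tested.

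Shares of cells with a read were compared after thinning every cell to 50000 reads. *Mthfd2* had a read in 2.52% ± 0.475 of control LECs (SD, n = 2 mice) and in 10.2% ± 2.26 of mutant LECs (n = 5), and before thinning in 5.84% and 17.2%. *Psat1* had one in 12.8% ± 1.17 and 33.8% ± 5.20. Every mutant was above both controls for *Mthfd2* and *Psat1*, as for *Atf4*, *Shmt2*, *Slc7a5* and *Slc1a5*, and below both for *Phgdh*. How often this holds over all genes was not counted. *Shmt2* was found in 23.4% ± 1.63 of control and 37.9% ± 6.50 of mutant LECs, and *Slc7a5* in 2.53% ± 1.27 and 7.18% ± 1.53. *Atf4*, the most widely found after *Slc3a2*, had a read in 59.7% ± 2.06 and 68.7% ± 1.93. Before thinning its direction was the reverse, with 90.1% of control and 86.7% of mutant LECs. In contrast *Phgdh* was found in 8.09% ± 0.930 of control and 5.13% ± 1.35 of mutant LECs, and in 11.1% ± 5.72 of control and 3.36% ± 1.67 of mutant BECs. The cells of higher contaminant markers are included in these shares.

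The levels rested on few cells for most of these genes. The tenth of cells with the highest value held 97.6% of the summed CPM of *Mthfd2* in mutant LECs and 100% in control LECs. It held 98.7% for *Slc7a5*, 97.1% for *Asns* and 99.7% for *Phgdh* in mutant LECs, but 36.4% for *Atf4* and 42.1% for *Slc3a2*. For *Psat1* the share was 96.6% in control and 60.9% in mutant LECs. After thinning, at least 5 of the 10 genes had a read in 2.19% and 2.86% of control LECs and in 12.8–18.8% of mutant LECs. In BECs this share was 6.92% and 3.82% against 7.26–15.2%, and it was not counted for other sets of genes. In non-cycling LECs it was 2.21% and 2.35% against 6.00–12.8%, and in cycling LECs of the mutants 28.1–61.9%. Across single LECs of a mouse, the pair with the highest correlation was *Psat1* and *Slc1a5*, with a median r of 0.192 over 7 mice, a weak relation in sparse counts between cells that share a library.

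The wider pathway was followed through lists of genes that hold none of the 10, apart from *Slc7a11* among the NRF2 genes, and that share *Atf3* between the stress response and dissociation lists. All counts are from the same edgeR quasi-likelihood fits, in which 2.76% of all genes were called between genotypes in LECs and 2.12% in BECs. Of 20 cytosolic aminoacyl-tRNA synthetases, which charge tRNAs and include known ATF4 targets, 2 rose in mutant LECs, *Hars* (0.67) and *Vars* (1.06), and 18 had a positive log2 difference, with a median of 0.53. In mutant BECs 0 were called and 18 were positive, with a median of 0.26. Of 18 kinases, phosphatase subunits and stress genes of the integrated stress response, 0 passed in either cell type between genotypes (median log2 difference 0.17 in LECs, 0.11 in BECs). Of 13 other enzymes of serine, proline and folate metabolism tested in LECs and 14 in BECs, 0 passed (0.56 and 0.18). Of the other amino acid transporters, 0 of 14 passed in LECs, and in BECs 1 of 13 rose, *Slc38a2* (1.00, edgeR adjusted p = 0.0389), a sodium-coupled importer of neutral amino acids. None of 9 enzymes of glutamine, aspartate and cysteine metabolism passed in LECs, nor did any of 10 in BECs (medians 0.36 and 0.46). Of 8 NRF2-responsive genes, 0 passed in LECs and *Nqo1*, a quinone reductase, rose in BECs (2.90, edgeR adjusted p = 0.00743). Its effect in LECs was lower by a log2 difference of −2.82 (edgeR adjusted p = 0.0174), and it was the only gene of these lists whose effect differed between the cell types.

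Between LECs and BECs, 19.2% of all genes were called in mutant mice and 10.4% in control mice, and the counts of the lists stand beside these shares. In mutant mice, *Slc6a9*, a glycine transporter, was higher in LECs by a log2 difference of 4.15, and *Slc43a2* by 1.30, and with *Slc7a1* and *Slc38a2* these were 4 transporters higher and 0 lower of 15. In control mice 3 of 15 were higher, *Slc6a9* by 3.86 and *Slc7a1*, a carrier of cationic amino acids, by 1.78. Of the 18 stress response genes, *Gdf15* (2.98) and *Nupr1* (2.34) were higher in LECs of mutants and *Cebpg* (−0.92) and *Ppp1r15a* (−0.68) lower, and in controls 4 were higher, *Gdf15* by 6.03 and *Vldlr* by 3.72 among them, and *Cebpg* was lower (−1.37). Synthetases higher in LECs of mutants numbered 4 of 20, *Gars* (1.09) first and then *Dars* (0.39), and in controls *Farsa* was higher (0.73) and *Farsb* lower (−0.72). Of 10 enzymes of glutamine, aspartate and cysteine metabolism, 4 were higher in LECs of mutants, *Gpt2* (3.11) and *Got1* (1.33) among them, and 3 lower, with *Glul* (−1.26) and *Bcat1*, for which mutant LECs had almost no read. In controls *Gpt2* (5.42) and *Got2* (0.83) were higher. Of 14 serine, proline and folate enzymes, *Aldh1l1* was lower in LECs of mutants (−6.23). *Nqo1* (0.75 in mutants, 3.58 in controls) and *Hmox1* (0.86, 1.26) were the NRF2 genes higher in LECs in both genotypes.

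Within LECs, 1.83% of all genes were called between genotypes in *Ptx3*-high cells, 3.74% between *Ptx3*-high and other cells of mutants and 5.63% between cycling and non-cycling cells. In *Ptx3*-high LECs of mutants against controls, *Aldh18a1*, an enzyme of proline synthesis (3.56, 1 of 13), *Slc6a9* (1.66, 1 of 12) and *Sesn2*, a leucine sensor of the stress response list with almost no control read (1 of 18), rose, and 0 of 20 synthetases, 0 of 7 glutamine and cysteine enzymes and 0 of 8 NRF2 genes passed. In *Ptx3*-high against other LECs of mutants, 3 of 20 synthetases rose, *Gars* (0.88) and *Vars* (0.65) first, *Nupr1* rose (0.88), and *Trib3* (−0.92), an inhibitor of ATF4, fell, with no call among the one-carbon, transporter and NRF2 lists. In cycling LECs 2 of 20 synthetases rose, *Vars* (1.13) and *Gars* (0.61), as did *Got1* (1.06) and *Txnrd1* (0.51), while *Trib3* (−1.09), *Ddit4* (−0.80) and *Slc6a9* (−1.34) fell and 0 of 13 one-carbon enzymes passed. Of the 10 dissociation genes, 4 fell in mutant LECs (*Egr1* by 2.78 and *Zfp36* by 2.48 on the log2 scale), 3 in mutant BECs and 3 in *Ptx3*-high LECs of mutants, and 0 rose. All 7 cycling genes rose in mutant LECs.

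Over the 14 sums of LECs and BECs of 7 mice, the genes most like the mean of the 10 standardised log2 levels, among genes of at least 10 CPM on average, were *Sorbs2* (Pearson r = 0.921), *Lta4h* (0.907), *Xpot* (0.884), *Myadm* (0.871) and *Gm20489* (0.867). Genes of the list itself at that level had lower r, from 0.743 (*Mthfd2*) to 0.254 (*Shmt2*). These 14 points share mice, plates and depth in pairs, so the values are a description.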

How the data were processed

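Smart-Seq2 count tables of 9 plates (7 mutant, 2 control) were used. The authors made the deposited raw read counts per gene and well by aligning to GRCm38 plus the *Gallus gallus* *PIK3CA* sequence with TopHat2 2.1.1, removing duplicate reads with SAMtools 0.1.18 and counting with featureCounts of Subread. The annotation version is not given in the sources used here, and the submitters' processing notes also name R 3.5.1 and Seurat 3.1.1. Per the file headers, the well names of every plate but that of control 2 carry the mark of duplicate removal. A further deposited file gives the exon length of each gene in bases (other, as the authors' counter writes it). Plates held 99969650–151812175 reads, with medians of 300447.5 per kept mutant cell and 286372 per kept control cell. Spike-in rows (92 of 46609), which name no gene, took 0.447% of reads and were left out of library sizes and tests. Symbols came from GENCODE vM21 for 46005 of 46517 Ensembl genes. The transgene transcript was not analysed here. The cells were sorted on CD31 and Podoplanin after a dump gate for immune and red cells, and no doublet caller was run.

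Reads were summed over the chosen cells of a mouse, both plates of mutants 3 and 5 included, with at least 5 cells per sum. Printed levels are plain CPM of these sums. Each comparison was fitted across all genes by the quasi-likelihood F test of edgeR 4.0.16 in R 4.3.3, after filterByExpr and TMM, with Benjamini-Hochberg adjustment over all genes tested and calls at 0.05, with the mouse as a block where both sums came from the same mice, and the SE is the log2 fold change divided by the root of F. The scripts were tested on simulated data. Alternatives were DESeq2 1.42.0, its size factors within edgeR, all genes with a read, cells thinned to 50000 reads, own marker sum at least 5 times the other, cells with higher contaminant markers left out, first plates only, non-cycling cells only or cycling cells kept, the plate series as a covariate or as a subset, limits of 50 and 200 CPM of *Ptx3* and of 2 and 4 cycling genes, the replicate block and each mouse left out. The mice are separate animals. Reads without molecular barcodes are not independent molecules, so the reads behind a value understate its error. *Shmt2* shares 1.03% of its exon bases with *Ndufa4l2* on the opposite strand, and reads from that stretch cannot be told apart. Figures were drawn in Python 3.11.15 with matplotlib 3.10.9, and numpy 2.4.6 and pandas 2.3.3 made the sums.

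The 10 genes, the pathway and marker lists and the limits were chosen with earlier results of these data known. The text names the 10 genes in each comparison, of each list at most 2 called genes per direction with the largest absolute log2 fold change, and the 5 genes most like the mean of the 10. Names beyond this rule (*Slc7a1* and *Slc38a2* in mutants, and counts of 5 or fewer) were chosen after their values were seen. Results for some genes of the lists are not reported here.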

Additional observations from a re-analysis of the deposited data

Results flagged for a closer look

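In groups of 5 mutant mice, the highest or lowest mouse was far from the others, by Dixon's 95% limit, in 5 of 70 groups tested, and chance alone gives about 1 in 20. Mutant 2 had the high value in 4 of these. Its *Atf4* level was 224 CPM in LECs, where the next mutant had 184, and 214 CPM in non-cycling LECs, where the next had 183. Its *Psat1* level in BECs was 71.8 CPM and the next was 36.5. Its *Slc7a11* level in non-cycling BECs was 6.09 CPM and the next was 2.29. Mutant 5 had 3.03 CPM of *Slc7a11* in non-cycling *Ptx3*-high LECs, and the next mutant had 1.23.

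The ratio of *Phgdh* in LECs to BECs differed in sign between the genotypes. *Phgdh* was lower in LECs than in BECs in both controls and higher in LECs in all 5 mutants, and the difference between mutant and control mice was 2.11 on the log2 scale. By edgeR's quasi-likelihood test of this difference, p was 0.0632 before and 0.464 after Benjamini-Hochberg adjustment over all genes. Without the cells of higher contaminant markers this difference was 0.35, and with non-cycling cells 1.18. The value in controls (−0.41) turned to 1.96 without the cells of higher contaminant markers and to 0.013 with thinned cells.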

How the results depend on the processing

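Of 80 values (10 genes in 8 comparisons), the 13 called ones kept their direction in all 192 alternatives and stayed called in 150. Some alternatives left the data of a contrast in place, such as leaving out a control mouse for the cell types within mutants. The counts therefore overstate how far the calls were tested. Of 1096 alternatives of the 67 values not called, 990 gave the same direction and no call, 35 gave a call and 71 turned the direction. The causes of these shifts were not tested. The least certain are the comparisons of mutant with control mice: they rest on 2 controls of different strain and treatment, and the plate series holds both controls and 1 mutant.

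Counts are given as all genes called, then as called among the 10. With DESeq2 there were 2472 and 4 in LECs of mutant against control mice (546 and 1 with edgeR), 2238 and 1 in BECs (410 and 0), 1240 and 2 for the difference of the effects (42 and 0), 4313 and 6 between LECs and BECs of controls (2277 and 2), 1956 and 2 in *Ptx3*-high LECs of mutant against control mice (284 and 0), 2258 in *Ptx3*-high against other LECs (663) and 3218 in cycling LECs (1063). With non-cycling cells only there were 92 and 0 in LECs, and 21 genes for the difference of the effects. With the plate series as a covariate there were 160 and 0 in LECs, 37 in BECs and 14 in *Ptx3*-high LECs. Within the plate series of the controls there were 3 and 0, 0, and 53. The labels number the replicates of both groups alike, but control 1 is of another strain, and the main fits did not pair the mice by number. Same-numbered mice deviated from their group means with correlations of −0.041 to 0.093. With 2 controls, the deviations of 1 mirror those of the other, so these correlations cannot settle whether the mice are paired. With the replicate block there were 4 and 0 in LECs, 0 in BECs and 51 in *Ptx3*-high LECs. With thinned cells 2 of the 10 were called in LECs and 4 between LECs and BECs of controls. Without cells of higher contaminant markers 2 of the 10 were called in LECs, and 94 genes for the difference of the effects. With own markers at least 5 times the other, 1 of the 10 was called in BECs and 1 between LECs and BECs of controls, 69 genes for the difference of the effects, 397 and 1 in *Ptx3*-high against other LECs (2 of the 10 before) and 520 and 1 in cycling LECs (4 before). With cycling cells kept there were 843 and 1 in *Ptx3*-high LECs of mutants against controls. A limit of 2 cycling genes gave 451 and 2 in cycling LECs, a limit of 4 gave 1604 genes, and first plates gave 2 of the 10.

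Leaving out 1 mouse at a time gave 153–546 genes and 0–1 of the 10 in LECs, 159–586 genes in BECs, 0–21 genes for the difference of the effects, 1145–2129 genes and 0–3 of the 10 between LECs and BECs of controls, 2–4 of the 10 in mutants, 43–2482 and 0–2 in *Ptx3*-high LECs of mutant against control mice, 231–401 and 1–2 in *Ptx3*-high against other LECs, and 382–804 and 1–3 in cycling LECs.

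The direction turned for these values, none of them called. In LECs of mutant against control mice, *Atf4* (0.06) was −0.051 with thinned cells, −0.012 with the plate series as a covariate and −0.014 within the controls' series, and *Slc7a11* (−0.56) was 0.17 in the latter and with the covariate. In BECs, *Mthfd2* (0.35) was −0.23 with non-cycling cells, −0.64 with the series as a covariate and −0.65 within it. There *Slc7a5* (−0.48) was 0.028 and 0.024, and *Slc3a2* (−0.21) 0.0035 and 2.7e-05. *Slc1a5* (0.03) was −0.081 without cells of higher contaminant markers, −0.11 with first plates, −0.076 with non-cycling cells, −0.023 with the covariate and −0.027 within the series. For the difference of the effects *Asns* (0.40) was −0.19 with purer markers. Between LECs and BECs, *Phgdh* in controls (−0.41) was 0.013 with thinned cells and 1.96 without cells of higher contaminant markers, and in mutants *Atf4* (0.06) was −0.033 with thinned cells and −0.011 with first plates, and *Slc7a5* (0.45) −0.31 with thinned and −0.55 with non-cycling cells. In *Ptx3*-high LECs of mutant against control mice, *Atf4* (−0.20) was 0.044 with the replicate block, *Phgdh* (0.18) −0.048 with thinned cells, −0.053 without cells of higher contaminant markers and −0.039 at 200 CPM of *Ptx3*, *Shmt2* (−0.13) was 0.18 with thinned cells, 0.0068 with purer markers, 0.30 with the covariate and 0.25 within the series, and *Slc7a11* (−0.07) was 0.037 without a filter, 0.029 with cycling cells kept, 1.03 with the covariate and 0.99 within the series. In *Ptx3*-high against other LECs *Atf4* (−0.08) was 0.0047 with first plates. In cycling LECs *Asns* (−0.36) was 0.039 with thinned cells and *Slc7a11* (−0.05) 0.26 with thinned cells and 0.21 at 4 cycling genes.

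Leaving out 1 mouse at a time also turned some of these. In LECs of mutant against control mice *Atf4* ran from −0.064 to 0.23, *Slc3a2* from −0.85 to 0.42 and *Slc7a11* from −1.15 to 0.49. In BECs *Mthfd2* ran from −0.082 to 0.98, *Slc7a5* from −0.96 to 0.26, *Slc3a2* from −0.50 to 0.16 and *Slc1a5* from −0.10 to 0.17. For the difference of the effects *Asns* ran from −0.0011 to 0.75, *Psat1* from −0.31 to 2.01 and *Slc3a2* from −0.40 to 0.17. Between LECs and BECs *Psat1* ran from −0.82 to 1.49 and *Slc7a11* from −0.45 to 1.73 in controls, and *Atf4* from −0.032 to 0.12 in mutants. In *Ptx3*-high LECs of mutant against control mice *Atf4* ran from −0.56 to 0.34, *Phgdh* from −0.67 to 2.87, *Shmt2* from −0.74 to 1.02 and *Slc7a11* from −0.52 to 0.17. In *Ptx3*-high against other LECs *Atf4* ran from −0.16 to 0.0034, *Phgdh* from −0.24 to 1.22, *Slc7a5* from −0.04 to 0.85 and *Slc7a11* from −0.50 to 0.0026. In cycling LECs *Slc7a11* ran from −0.24 to 0.25.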
